A study of Homo sapiens with 9 samples.

Results

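Intermediate filament genes were examined in the human neuroblastoma line IMR32, through 10 chosen members: the simple epithelial keratins KRT7, KRT8, KRT18 and KRT19, the filament genes VIM and NES, and the neuronal filament genes INA, NEFL, NEFM and PRPH. They were taken by gene symbol from the platform annotation and all 10 were measured, by 13 of the 22215 probe sets tested, which covered 11963 named genes. Expression was measured on 9 single-channel oligonucleotide arrays in 3 groups of 3. One group was IMR32 stably expressing the 69-kDa protein form of choline acetyltransferase (69CHAT), the enzyme that makes acetylcholine, another stably expressed its 82-kDa form (82CHAT), and the third was labelled IMR32 wild type (WT). There was 1 line per form of the enzyme, so a difference between forms and one between lines cannot be told apart. The series' design text calls the arrays of a group biological replicates without saying that they came from separate cultures, so the p-values measure only the spread between these samples.

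Intermediate filaments are rope-like polymers of the cytoskeleton whose subunit genes are switched on by cell type. Simple epithelia pair a type II keratin (KRT7 or KRT8) with a type I keratin (KRT18 or KRT19) in obligate heteropolymers. Mesenchymal and many cultured cells use vimentin (VIM), neural progenitors add nestin (NES), and neurons use alpha-internexin (INA), the neurofilament light, medium and heavy chains (NEFL, NEFM, NEFH) and, mainly in the peripheral nervous system, peripherin (PRPH).

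Of the 10 members, 4 were higher and 4 lower in the 69CHAT line than on the arrays labelled WT, where 11.7% of all genes were called higher and 17.7% lower (29.4% in either direction). In the 82CHAT line 4 were higher and 5 lower, against 11.8% and 18.5% of all genes (30.3% in either direction). KRT8, KRT18 and KRT19 were lower in both lines and NES, INA, NEFM and PRPH were higher, while KRT7 was dim on all arrays. The division into keratins and neurofilaments did not hold for NEFL, which was lower in both lines. A call here is a limma adjusted p under 0.05 for the gene's brightest probe set, and both comparisons use the same 3 WT arrays.

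The arrays labelled WT did not carry the mark of their line. MYCN, the oncogene amplified in IMR-32, read 62.5, 120.5 and 99.97 there by its brightest probe set and 4181 to 6118 on the arrays of the lines. Of 13 measured sympathoadrenal neuroblast markers, MYCN among them, 10 were higher in each line and 3 did not pass. The 13, with MYCN, summed to 1781 to 2024 on WT arrays, 10935 to 18447 in 69CHAT and 14005 to 20590 in 82CHAT. TH read 38.8 to 44.1 on WT arrays and 40.4 to 55.8 in the lines, and DBH 59.7 to 71.1 and 67.0 to 101.6. Of 9 epithelial markers 2 (EPCAM and CDH1) were lower in each line and 7 did not pass. The 9 summed to 1219 to 1805 on WT arrays and 601.8 to 703.5 in the lines. EPCAM alone read 492.9 to 1209 on WT arrays and 24.7 to 29.7 in the lines. The 12 mesenchymal markers summed to 3261 to 4541 on WT arrays and 2784 to 4269 in the lines, with 4 higher (TWIST1, SNAI2, PDGFRA and THY1) and 1 lower (FN1) in each line. FN1 alone read 1973 to 3252 on WT arrays and 310.7 to 532.5 in the lines, while TWIST1, SNAI2 and PDGFRA were 6.59-fold to 7.88-fold higher in 69CHAT and 7.34-fold to 9.95-fold higher in 82CHAT. The 5 Schwann and glial markers summed to 307.4 to 454.4 over all arrays, with 1 (ERBB3) lower in each line. The 5 muscle markers summed to 418.8 to 557.5, with 0 called. Among all genes 11.7% were called higher and 17.7% lower in 69CHAT, and 11.8% and 18.5% in 82CHAT. The epithelial and glial counts cannot be told from those shares. Every difference from WT below is a difference from these arrays, and the part that the identity of the WT cells has in it was not tested.

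Replicate 1 of each group also stood apart. These 3 arrays had lower bioD (5' probe set) spike-in intensities, 760.9 to 1033 against 1530 to 2308 on the remaining arrays. Their ACTB ratios of 3' to 5' signal were 0.703 to 0.847 against 0.831 to 1.08, ranges that overlapped, as WT replicate 1 (0.847) lay above WT replicate 3 (0.831). The same ratio for GAPDH did not part them, at 0.980 to 1.065 against 0.950 to 1.047. Without the replicate 1 arrays 4 members were higher and 5 lower in each line, where 19.6% of all genes were called higher and 23.9% lower in 69CHAT (43.5% in either direction) and 20.2% and 23.8% in 82CHAT (44.1%). The member counts were the same with all arrays and the replicate number as a block, where 17.4% of all genes were higher and 22.9% lower in 69CHAT (40.3%) and 18.3% and 23.6% in 82CHAT (42%).

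**Figure D1:**
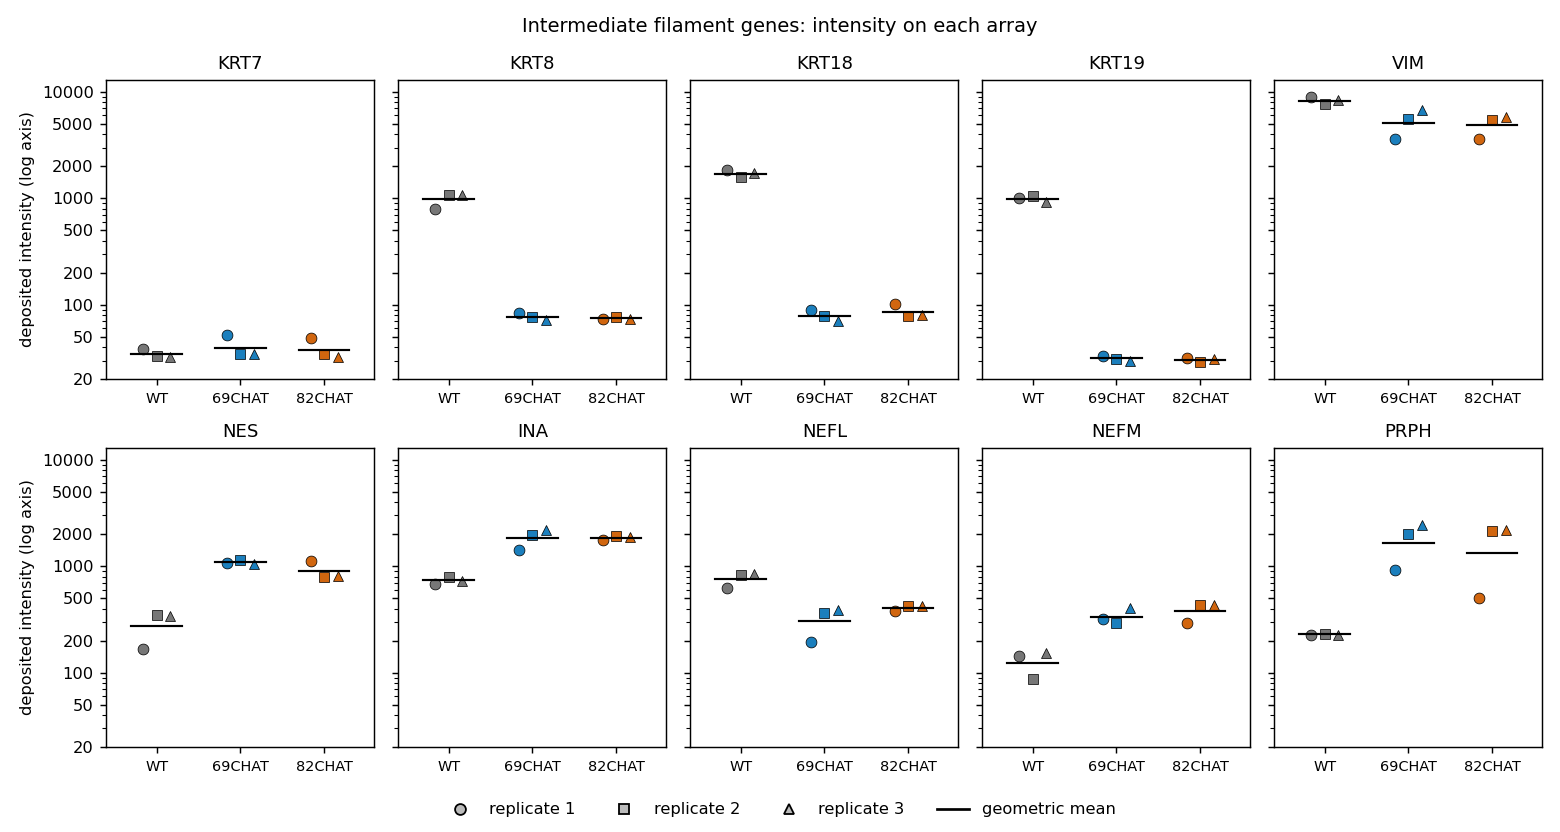
Deposited intensity (log axis) of the brightest probe set of each of the 10 members on every array, by group; circles, squares and triangles are replicates 1, 2 and 3 and the line is the geometric mean. KRT8, KRT18 and KRT19 lie at 800.6 or above on WT arrays and at 102.0 or below in both lines, whereas NES, INA, NEFM and PRPH lie higher in the lines and NEFL lies lower.

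Promoter sequences of the RefSeq annotation (GRCh38.p14) were used for 5 of the 10 members, KRT8, VIM, NES, INA and PRPH. Those of 3 neural members that were higher together in both lines are shown, as the 250 bases before the annotated start, 5′ to 3′, with matches to a GC box (GGGCGG) or TATA box (TATAAA) on either strand in capitals. INA lies at chr10:103276888-103277137 on the plus strand, PRPH at chr12:49294897-49295146 on the plus strand and NES at chr1:156677408-156677657 on the minus strand.
INA: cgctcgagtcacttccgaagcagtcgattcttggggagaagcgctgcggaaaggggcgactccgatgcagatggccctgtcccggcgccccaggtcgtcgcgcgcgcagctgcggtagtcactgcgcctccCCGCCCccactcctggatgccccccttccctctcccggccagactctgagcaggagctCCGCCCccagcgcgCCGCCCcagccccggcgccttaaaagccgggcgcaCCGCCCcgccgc
PRPH: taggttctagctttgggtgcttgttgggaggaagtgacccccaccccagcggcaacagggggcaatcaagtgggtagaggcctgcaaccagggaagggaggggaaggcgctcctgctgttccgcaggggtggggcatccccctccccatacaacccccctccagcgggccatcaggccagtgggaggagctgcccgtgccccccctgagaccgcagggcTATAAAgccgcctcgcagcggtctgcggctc
NES: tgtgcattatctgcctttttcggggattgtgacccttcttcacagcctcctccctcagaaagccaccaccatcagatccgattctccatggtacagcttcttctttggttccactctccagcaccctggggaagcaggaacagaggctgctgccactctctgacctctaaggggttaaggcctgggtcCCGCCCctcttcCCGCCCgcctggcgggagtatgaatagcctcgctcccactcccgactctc
The window of INA, 72.8% G or C, held 4 GC boxes and no TATA box. The window of PRPH (66.8% G or C) held 1 TATA box, 31 bases before the start, and no GC box, and that of NES (58.0%) held 2 GC boxes and no TATA box. The window of VIM (46.0%) held 1 GC box. That of KRT8 (50.4%) held neither motif and began inside the span of the KRT8 gene model, so it is not printed. No match to AP-1 (TGANTCA) or CCAAT was found in these 5 windows. Over all 35116 promoters of the table a GC box was found in 42.6%, CCAAT in 32%, a TATA box in 10.7% and AP-1 in 6.57%, and the median G or C content was 58.0%. A match describes the letters of the window and nothing about binding.

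Among the keratins, KRT19, a small type I keratin of simple epithelia, read 1017, 1046 and 923.6 on the WT arrays, 33.1, 31.2 and 29.9 in 69CHAT and 32.0, 29.1 and 30.7 in 82CHAT. All 6 arrays of the lines lay below 55.9, the lowest lower quartile of any array, so the gene was dim there and the fold is approximate. Its log2 level was 9.96 ± 0.094 (SD, n = 3) on WT arrays, 4.97 ± 0.073 in 69CHAT and 4.93 ± 0.069 in 82CHAT. The log2 differences were -4.99 and -5.02 (SE 0.082 each; limma adjusted p = 9.5e-09 and 8.9e-09).

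KRT18, the type I partner of KRT8, read 1842, 1573 and 1722 on WT arrays, 88.9, 78.6 and 71.2 in 69CHAT and 102.0, 78.7 and 81.0 in 82CHAT. WT did not overlap with the lines, with log2 differences of -4.43 in 69CHAT and -4.30 in 82CHAT (SE 0.13, limma adjusted p = 1.1e-07 and 1.2e-07). KRT8, a type II keratin, read 800.6, 1086 and 1074 on WT arrays, 84.1, 76.1 and 72.1 in 69CHAT and 73.6, 77.6 and 73.0 in 82CHAT. Its log2 differences were -3.66 and -3.71 (SE 0.13, limma adjusted p = 2.5e-07 each), so KRT8 and KRT18, which polymerise with each other, were both lower. These genes are neighbours on chromosome 12 with 0 protein-coding genes starting between them in the RefSeq gene order. Each was measured by a single probe set whose suffix (_x_at) marks probes that can match other genes, so related sequences such as pseudogenes may contribute to both.

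KRT7, a type II keratin of ducts and glands, stood apart from the other keratins. Its brighter probe set read 38.4, 33.3 and 32.6 on WT arrays, 51.9, 34.5 and 34.3 in 69CHAT and 48.9, 34.6 and 32.5 in 82CHAT, and its other probe set read 32.8 to 37.4 on all arrays. All of these readings were under 55.9, the groups overlapped, and the log2 differences of the brighter probe set were 0.19 (95% confidence interval -0.27 to 0.64, adjusted p = 0.54) and 0.13 (-0.32 to 0.59, adjusted p = 0.65). The median log2 difference of the 4 keratins was -4.05 in 69CHAT and -4.01 in 82CHAT, beside a median of 0.052 over all genes in each comparison.

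VIM, the filament of mesenchymal and most cultured cells, was bright in every group. It read 8870, 7707 and 8315 on WT arrays, 3596, 5544 and 6786 in 69CHAT and 3635, 5460 and 5786 in 82CHAT. Every array of the lines lay below every WT array, and in each line the replicate 1 array was the lowest. The log2 difference was -0.69 in 69CHAT (SE 0.25, 95% confidence interval -1.25 to -0.13), which missed the threshold (limma adjusted p = 0.073) and passed it with the replicate number as a block (0.027). In 82CHAT it was -0.77 (SE 0.25, limma adjusted p = 0.048), a call that did not survive leaving out any 1 of 7 arrays, all 3 of 82CHAT, all 3 of WT and replicate 2 of 69CHAT (adjusted p from 0.053 to 0.13). In replicates 2 and 3 alone the differences were -0.38 and -0.51 (limma adjusted p = 0.029 and 0.0095).

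NES, the filament of neural stem and progenitor cells, went the other way. It read 167.7, 352.2 and 342.0 on WT arrays, 1079, 1156 and 1061 in 69CHAT and 1122, 789.3 and 810.7 in 82CHAT. The lines did not overlap with WT, whose replicate 1 was low, at 0.483 of the mean of the other WT readings. NES was 4.03-fold higher in 69CHAT (log2 difference 2.01, SE 0.27, limma adjusted p = 0.00068) and 3.29-fold higher in 82CHAT (1.72, SE 0.27, 0.0016).

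INA, the alpha-internexin gene of young neurons, read 685.5, 799.4 and 730.2 on WT arrays, 1417, 1949 and 2203 in 69CHAT and 1780, 1942 and 1863 in 82CHAT. The lowest array of either line lay above the highest WT array. The gene was 2.48-fold higher in 69CHAT (log2 difference 1.31, SE 0.15, limma adjusted p = 0.00029) and 2.53-fold higher in 82CHAT (1.34, SE 0.15, 0.00026). Its WT readings also lay above the array medians of 133.7 to 142.6.

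PRPH, the filament of peripheral and autonomic neurons, had the largest log2 difference among the members that were higher in the lines. It read 226.5, 233.1 and 227.2 on WT arrays, 920.0, 2018 and 2414 in 69CHAT and 505.5, 2136 and 2181 in 82CHAT. The WT arrays lay close together, and the replicate 1 array of each line lay far below its other arrays, at 0.415 of their mean in 69CHAT and 0.234 in 82CHAT. The log2 difference was 2.85 in 69CHAT (SE 0.56, limma adjusted p = 0.0053) and 2.54 in 82CHAT (SE 0.56, 0.0096). In replicates 2 and 3 alone it was 3.26 and 3.23 (adjusted p = 1.8e-06 and 2.0e-06), 9.59-fold and 9.38-fold. Leaving out replicate 1 of 82CHAT alone moved the 82CHAT value from 5.81-fold to 9.43-fold.

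The neurofilament subunits did not move together. NEFM, the medium chain, read 144.0, 86.8 and 153.8 on WT arrays, 321.6, 292.2 and 406.2 in 69CHAT and 296.3, 433.0 and 430.9 in 82CHAT. The lines did not overlap with WT and NEFM was 2.71-fold higher in 69CHAT (log2 difference 1.44, SE 0.25, limma adjusted p = 0.0025) and 3.07-fold higher in 82CHAT (1.62, SE 0.25, 0.0013).

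NEFL, the light chain around which neurofilaments assemble, was lower in the lines by all 3 of its probe sets. The probe set with the highest mean over the arrays read 631.9, 828.2 and 837.1 on WT arrays, 196.0, 363.8 and 391.7 in 69CHAT and 377.7, 427.2 and 427.2 in 82CHAT, with every array of the lines below every WT array. Its log2 differences were -1.32 (SE 0.25, limma adjusted p = 0.0039) and -0.89 (SE 0.25, 0.027). The call in 82CHAT was lost when any array of 82CHAT or replicate 2 or 3 of WT was left out (adjusted p from 0.060 to 0.090). The second probe set read 881.2 to 1198 on WT arrays, 182.5 to 266.5 in 69CHAT and 285.5 to 290.6 in 82CHAT, with larger log2 differences of -2.20 and -1.87 (SE 0.16; limma adjusted p = 1.8e-05 and 4.8e-05). The third was dim, at 71.9 to 99.7 on WT arrays and 51.4 to 60.0 in the lines, and its log2 differences were -0.63 and -0.64 (limma adjusted p = 0.0052 and 0.0047). NEFL and NEFM are neighbours with 0 protein-coding genes between them in the RefSeq gene order, and they differed from WT in opposite directions in both lines.

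NEFH, the heavy chain and no member of the set, was measured beside them as one of 6 other cytoplasmic filament genes. Its brighter probe set read 95.5, 101.6 and 102.1 on WT arrays, 302.6, 1027 and 1041 in 69CHAT and 195.3, 1555 and 1726 in 82CHAT. It was 6.89-fold higher in 69CHAT and 8.09-fold higher in 82CHAT (log2 differences 2.78 and 3.02, SE 0.81, limma adjusted p = 0.034 and 0.023). As with PRPH, replicate 1 of the lines was low, at 0.293 and 0.119 of the mean of the other arrays. The call in each line was lost without replicate 2 or 3 of that line or without any 1 of the WT arrays (adjusted p from 0.086 to 0.11 in 69CHAT and from 0.065 to 0.086 in 82CHAT). Without replicate 1 of the line compared, NEFH was 10.4-fold higher in 69CHAT and 16.4-fold higher in 82CHAT (limma adjusted p = 0.018 and 0.00059). Its other probe set, at 32.3 to 41.9 on WT arrays and so under 55.9 there, gave approximate folds of 18.4 and 22.9 (limma adjusted p = 0.0094 and 0.0066).

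**Figure D2:**
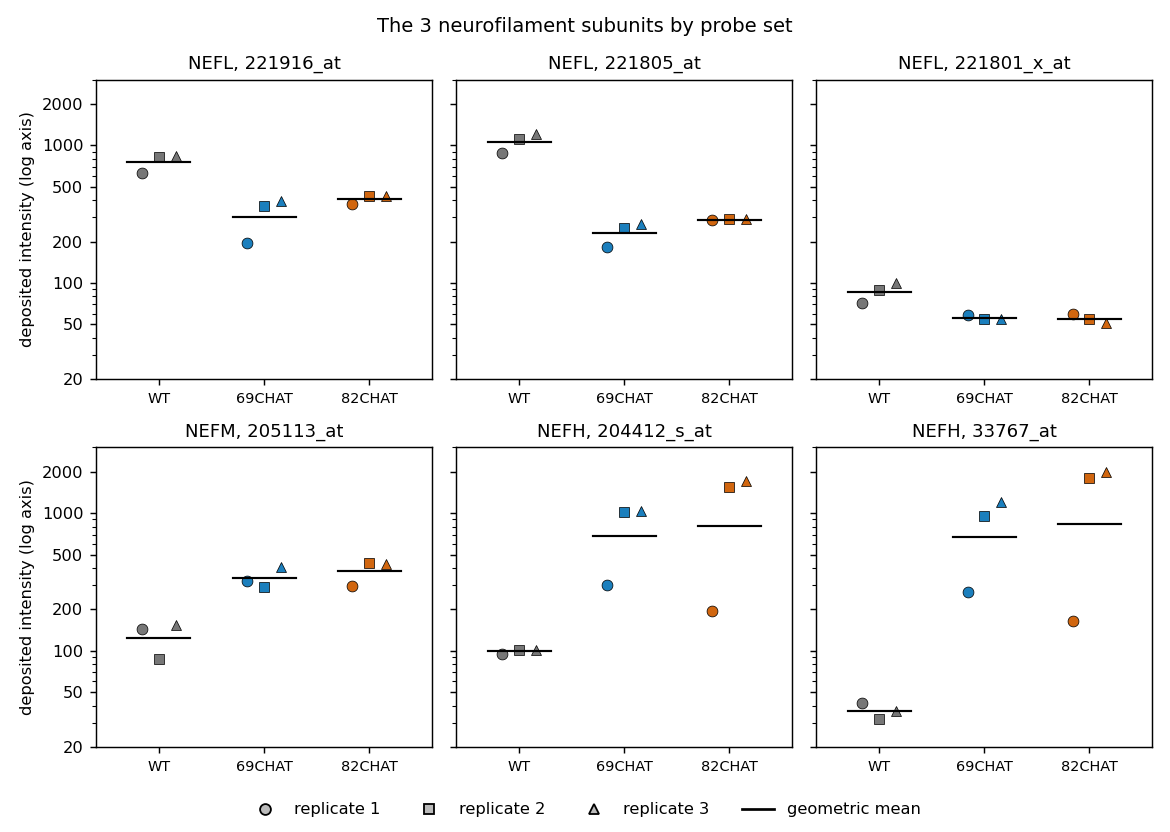
Deposited intensity (log axis) of every probe set of the neurofilament light (NEFL), medium (NEFM) and heavy (NEFH) chain genes on each array, with replicate numbers as symbols and geometric means as lines. NEFL is higher on WT arrays by all 3 probe sets, NEFM and NEFH are higher in the lines, and replicate 1 of each line is low for NEFH (302.6 and 195.3 by the brighter probe set).

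The median log2 difference of the 4 neuronal members was 1.37 in 69CHAT and 1.48 in 82CHAT, with 3 higher and 1 lower in each line. The order of the groups by mean log2 level was WT above both lines for KRT8, KRT18, KRT19, VIM and NEFL, and both lines above WT for NES, INA, NEFM and PRPH. The order of the 69CHAT and 82CHAT lines did not pass the test for any member.

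**Figure D3:**
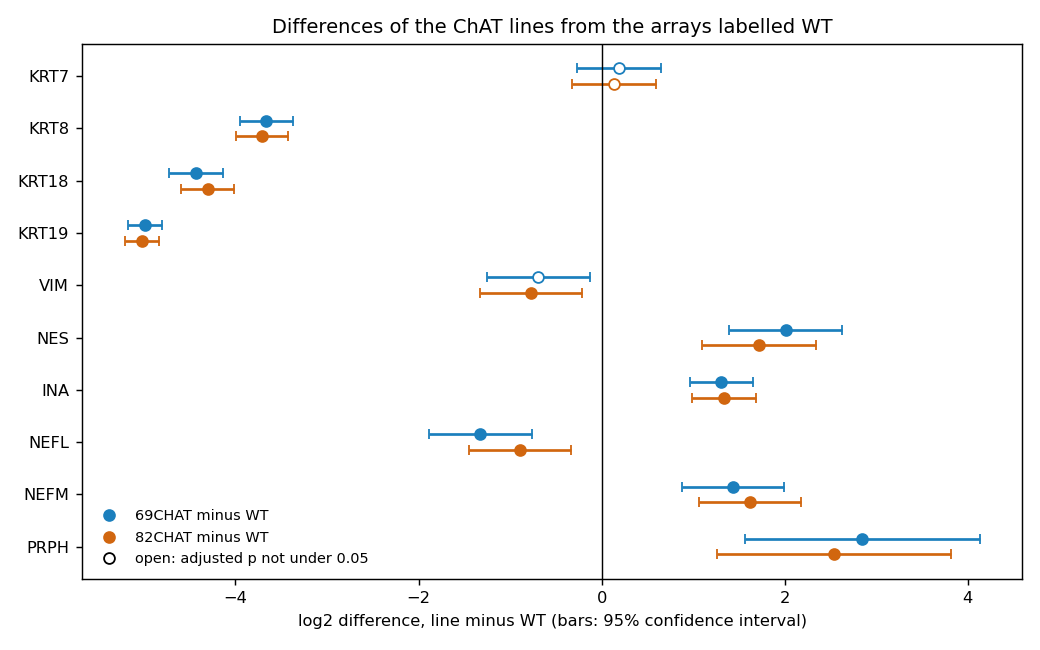
Log2 difference of each line from the arrays labelled WT for the 10 members, with 95% confidence intervals from limma; filled points have an adjusted p under 0.05. KRT19 is lowest, at -4.99 and -5.02, PRPH is highest, at 2.85 and 2.54, and NEFL lies on the keratin side of 0.

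Between the lines, 0 of the 10 members were called by limma (adjusted p = 0.9999 for each), and 0 of all genes were (0%). At an unadjusted p under 0.05 there were 0 members and 441 of 11963 genes. The largest difference among the members was in NEFL, 0.43 higher in 82CHAT on the log2 scale (95% confidence interval -0.13 to 0.99). PRPH differed by -0.31 (-1.59 to 0.97), NES by -0.29 (-0.91 to 0.33) and NEFM by 0.18 (-0.38 to 0.74). The intervals were narrowest for KRT7's dimmer probe set (-0.17 to 0.18) and for KRT19 (-0.22 to 0.15). In replicates 2 and 3 alone, where 293 genes were called (2.45%, with 1.13% higher and 1.32% lower in 82CHAT), NES was 1.38-fold lower in 82CHAT (limma adjusted p = 0.029), while NEFH was 1.59-fold higher (0.011). The difference in NES rests on the arrays at 1156 and 1061 in 69CHAT against 789.3 and 810.7 in 82CHAT, and replicate 1 ran the other way, at 1079 against 1122. Replicate 1 of NEFH also ran the other way, at 302.6 in 69CHAT against 195.3 in 82CHAT.

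Few of the other keratins passed the test. Over all genes 11.7% were called higher and 17.7% lower in 69CHAT, and 11.8% and 18.5% in 82CHAT. Of 14 other keratins measured, 1 was lower in each line and 13 did not pass, with a median log2 difference of 0.10 in each. KRT10, a type I keratin best known from epidermis, was the one called and read 1324 to 1616 on WT arrays, 627.5 to 938.3 in 69CHAT and 618.0 to 951.6 in 82CHAT (log2 differences -0.99 and -0.85, SE 0.20, limma adjusted p = 0.0063 and 0.014; 0.054 in 82CHAT without replicate 3 of WT). The other 13 read 25.3 to 177.1 on all arrays. With the replicate number as a block 1 of them passed as higher in each line, KRT5 in 82CHAT (log2 difference 0.29, limma adjusted p = 0.020) and KRT12 in 69CHAT (adjusted p = 0.032), whose readings of 31.5 to 44.4 were under 55.9 on all arrays. Of the 6 other cytoplasmic filament genes, NEFH among them, 1 was higher and 1 lower in 69CHAT, and 1 higher and 2 lower in 82CHAT. A list this short cannot be told from the shares of all genes. SYNM (synemin), which joins vimentin or desmin filaments, was lower in both lines, with log2 differences of -0.54 and -0.76 (SE 0.10, limma adjusted p = 0.0048 and 0.00076). The lens filament gene BFSP1 was lower in 82CHAT (log2 difference -0.29, limma adjusted p = 0.030), a call lost without any of 5 arrays (replicates 1 and 2 of 82CHAT and of WT, and replicate 2 of 69CHAT; adjusted p from 0.055 to 0.10). Of the nuclear lamins 0 of 3 passed by their brightest probe sets in either line. LMNB1 had log2 differences of 0.076 and 0.49 and passed in 82CHAT with the block (limma adjusted p = 0.046), and LMNB2 had -0.34 and -0.16 and passed in 69CHAT with it (0.024).

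Among the genes that anchor filaments, 8 of 13 plakins and desmosome proteins were lower and 0 higher in each line, with medians of -0.71 and -0.59. Of all genes 17.7% were lower in 69CHAT and 18.5% in 82CHAT. DSP, the desmoplakin that ties keratin filaments to desmosomes, read 1165 to 1209 on WT arrays and 24.97 to 31.5 in the lines (log2 differences -5.37 and -5.43, SE 0.094, limma adjusted p = 1.2e-08 and 1.1e-08). The readings of DSP in the lines were all under 55.9, so its fold, like that of KRT19, is approximate. The desmosomal cadherin DSG2 read 813.4 to 941.0 and 53.6 to 59.1 (-3.98 and -3.93, SE 0.079, adjusted p = 2.1e-08 and 2.3e-08). Of its readings in the lines 2 were under 55.9 and the rest close to it, so its fold is approximate too. DSC2, another desmosomal cadherin, read 81.7 to 123.8 on WT arrays and 26.0 to 30.0 in the lines, also under 55.9 there (approximate log2 differences -1.81 and -1.78), and JUP (plakoglobin) had log2 differences of -1.33 and -1.47. PLEC (plectin), a linker of many filament types, read 351.2 to 448.7 on all arrays and did not pass.

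Of 5 measured genes for chaperones and turnover factors that act on filaments, 1 was higher and 2 lower in each line. Over all genes 11.7% were higher and 17.7% lower in 69CHAT, and 11.8% and 18.5% in 82CHAT, and a list this short cannot be told from those shares. The small heat shock gene HSPB1 was 3.71-fold and 2.42-fold higher (limma adjusted p = 0.0015 and 0.012), and HSPB8 was lower, with log2 differences of -1.50 and -1.48 (adjusted p = 4.1e-05 and 4.6e-05). STUB1, a ubiquitin ligase that works with chaperones, had log2 differences of -0.97 and -0.73. Of 9 motor genes 3 were higher in each line, and 1 was lower in 69CHAT and 2 in 82CHAT, beside the same shares of all genes. The neuronal kinesin heavy chain KIF5C was 3.53-fold and 4.03-fold higher (adjusted p = 0.00071 and 0.00040), and DCTN1 (dynactin) 1.70-fold and 1.48-fold. KLC1, a kinesin light chain, was 2.98-fold and 2.73-fold higher by its brightest probe set, but its 3 probe sets disagreed: the dimmest had log2 differences of -1.02 and -0.71 (adjusted p = 0.0059 and 0.032). MYO5A, a myosin motor, read 42.97 to 48.5 in the lines, under 55.9, and 66.9 to 92.3 on WT arrays and was lower, with log2 differences of -0.82 and -0.75 (adjusted p = 0.00093 and 0.0015).

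**Figure D4:**
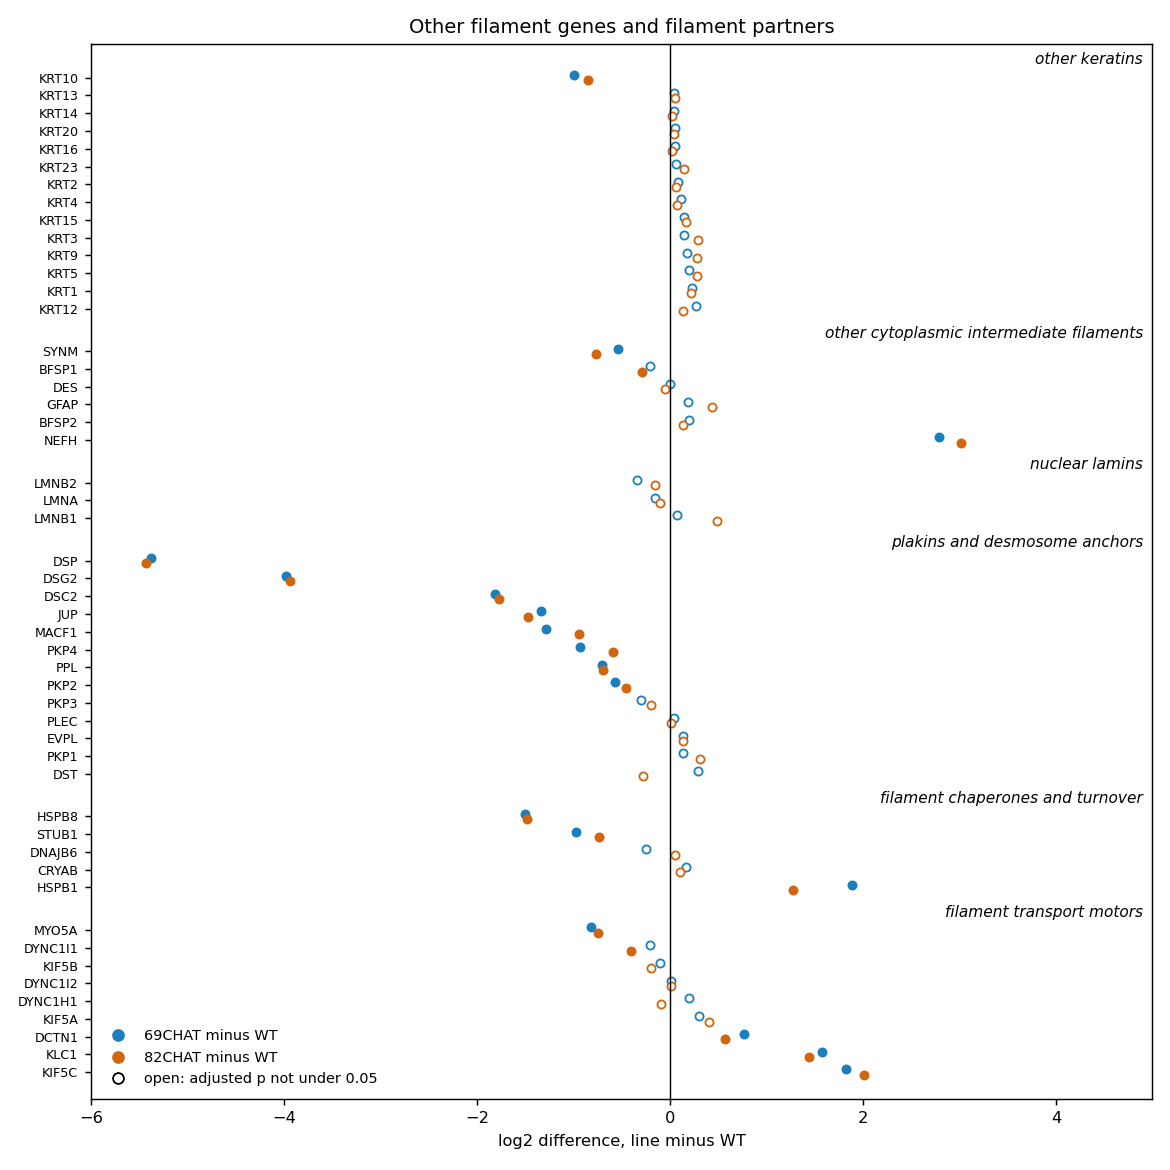
Log2 difference of each line from the arrays labelled WT for other filament genes, filament anchors, chaperones and motors, 1 brightest probe set per gene; filled points have a limma adjusted p under 0.05. In both lines DSP and DSG2 lie farthest below 0 (-5.37 and -3.98 in 69CHAT) and NEFH farthest above it (2.78 and 3.02), followed by HSPB1 in 69CHAT (1.89) and KIF5C in 82CHAT (2.01), and 13 of 14 other keratins are open points.

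The genes whose log2 values over the 9 arrays were most like those of KRT8 were VAMP8, CCND2, RADX, CAV2 and MYO1D, with Pearson r of 0.9991 to 0.9996. For NEFL they were NUP133, GSPT1, RAB5C, MKI67 and ATP6V1D (r of 0.982 to 0.989). These are descriptions over 9 arrays that fall into few groups, and a gene that parts WT from the lines by a like amount reaches a high r. For KRT8 the 5 genes read 19.4 to 37.4 in the lines and 232.7 to 1145 on WT arrays. The genes nearest to NEFL also shared its low replicate 1 in 69CHAT, such as RAB5C at 296.2 there against 526.6 and 479.5 on the other arrays of that line. Choosing genes by r over these same arrays favours such a match, so it is no separate result.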

How the data were processed

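Per the submitters' processing notes, the authors made the values with RMA, which corrects background, normalizes between arrays and summarises each probe set; its version, and how the values came to be linear, are not stated in the labels or headers. Intensities were deposited unlogged and span 14.9 to 21486, with array medians of 133.7 to 142.6. Their number of arrays limits the precision. Of 22283 probe sets, 68 AFFX controls were left out of the tests. A platform annotation gave 19065 probe sets 1 symbol, 1043 several and 2107 none, and only the first were named. RefSeq changed 0 symbols.

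Log2 intensities were fitted in limma 3.58.1 (R 4.3.3) with 3 group means over all 9 arrays, two-sided, and Benjamini-Hochberg adjusted over all 22215 probe sets of a contrast (threshold 0.05). The fit was run on simulated data with known differences. Those values were drawn independently for each array, so the run says nothing about the shared deviation of replicate 1. The probe set with the highest mean log2 value stood for a gene. All probe sets of the members are described. Of each other list up to 4 genes with the smallest adjusted p were named (the 2 with the largest difference where none passed), and for KRT8 and NEFL the 5 genes of highest Pearson r. Members, lists, motifs and tests were chosen with earlier results of these data known. Groups and replicate numbers came from the sample titles. Same-numbered arrays of different groups deviated together from their group means (r from 0.278 to 0.573 over probe sets in all 9 pairs). The numbers were therefore taken to pair the samples in the fits with a replicate block, while the main fit left this pairing out. Replicates 2 and 3 of different groups also deviated together (0.209 to 0.475) and replicate 1 went against both (-0.594 to -0.280), so the check mainly parts replicate 1 from the rest and does not tell 2 from 3.

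Alternatives were other scaling, a pseudocount of 16, filters, fewer arrays, a block, a variance trend and array weights.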

Additional observations from a re-analysis of the deposited data

How the results depend on the processing

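Of 412 member differences from WT refitted under alternatives, 384 kept their direction and side of the threshold, 16 lost their call and 8 gained it, all of VIM or NEFL. The other 4 were of KRT7, which passed no test and changed sign by its other probe set (-0.043 in 69CHAT and -0.035 in 82CHAT) and on leaving out replicate 1 of the line compared; leaving out 1 array in turn, it ranged from -0.009 to 0.288 in 69CHAT and from -0.049 to 0.248 in 82CHAT. Between the lines 17 uncalled differences changed sign. KRT8 and INA came to 0.022 and -0.123 in replicates 2 and 3, with or without the block, and to 0.023 and -0.055 with array weights, and KRT7 to 0.009 by its other probe set. Leaving out 1 array in turn, the difference between the lines ranged from -0.236 to 0.143 for KRT7, -0.099 to 0.012 for KRT8, -0.072 to 0.001 for KRT19, -0.336 to 0.131 for VIM, -0.155 to 0.163 for INA and -0.731 to 0.388 for PRPH. KRT8, KRT18, KRT19, NES, INA, NEFM and PRPH kept their calls in both comparisons under every alternative in which they were fitted. With the replicate block 4 members were higher and 5 lower in each line, where 40.3% and 42% of all genes were called, and beside VIM in 69CHAT (adjusted p = 0.027) it changed no member's call. Without _x_at and _s_at probe sets, which left 5 members, 2 were lower in each line, and 1887 and 1948 genes were called in 69CHAT and 82CHAT in place of 3517 and 3627. In replicates 2 and 3 alone with the replicate block, added after seeing the data, 5440 and 5478 were called, and with array weights estimated gene by gene, also added, 5630 and 5610. The planned default array weights were estimated but did not converge (weights of 0.0918 to 61.1), so they were not used in a fit. At a threshold of 0.01, 2340 genes were called in 82CHAT and 3 members were lower. Leaving out 1 array in turn gave 2740 to 4059 genes in 69CHAT and 2886 to 3986 in 82CHAT, with 4 to 5 and 3 to 5 members lower and 4 higher in each. Between the lines, where 0 genes were called, the counts were 293 in replicates 2 and 3, 284 with the block added, 1054 with array weights, and 0 to 22 leaving out 1 array in turn (22 without replicate 1 of 82CHAT, 4 without replicate 1 of 69CHAT, 1 without replicate 2 of 82CHAT). The 1 member lower in 82CHAT in the first 3 of these was NES. The cause was not tested, except that fewer genes enter without the _x_at and _s_at probe sets. Signal near background limits the folds of KRT19, DSP, DSG2 and DSC2 and the reading of KRT7, KRT12 and MYO5A. It also limits the folds of PDGFRA and of the dimmer NEFH probe set, both under 55.9 on WT arrays. The epithelial markers EPCAM and CDH1 were also under 55.9 on all 6 arrays of the lines.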

Other observations

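A few filament genes outside the members, chosen after their values were seen, depended on the probe set or on the arrays used. LMNA, the gene of lamins A and C, did not pass by its brightest probe set (log2 differences -0.16 and -0.10), but another probe set read 444 to 497 on WT arrays and 95 to 158 in the lines, with log2 differences of -1.70 and -1.89 (limma adjusted p = 9.5e-05 and 5.1e-05). Its remaining probe sets showed less. The mean log2 levels in WT, 69CHAT and 82CHAT were 8.24, 8.20 and 8.21 by one and 7.73, 7.25 and 7.18 by the other. DST, a plakin also known as dystonin, was not called between the lines over all arrays. In replicates 2 and 3 alone its brightest probe set read 1265 and 1172 in 69CHAT against 532 and 581 in 82CHAT, 2.19-fold lower in 82CHAT (limma adjusted p = 0.0028), while replicate 1 read 442 against 653. MACF1, a plakin that links actin and microtubules, was lower than WT in both lines by its brightest probe set (-1.29 and -0.95) and in replicates 2 and 3 alone was 1.53-fold higher in 82CHAT than in 69CHAT (adjusted p = 0.045), while replicate 1 ran the other way, at 371.6 in 69CHAT against 323.3 in 82CHAT.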
